A study of Sus scrofa with 4 samples.

Results

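The keratins KRT5, KRT15, KRT7, KRT4 and KRT23 were followed from primary pig pancreas to porcine pancreatic ductal organoids (PPDO). Keratins are the intermediate filament proteins of epithelial cells. A type I chain pairs with a type II chain to form the filament, so cells express them in sets that differ between simple and stratified epithelia. KRT5 is the type II chain and KRT15 a type I chain of basal cells in stratified epithelia, KRT7 is a type II chain of simple ductal epithelia, KRT4 a type II chain of the upper layers of internal stratified epithelia, and KRT23 a type I chain whose role is less well known. The 5 genes, like the gene lists below, were chosen with earlier results of these data known. The 5 were taken by name, and all features of a gene in the count tables were summed. They are 5 of 30282 genes counted, and 32 other named keratins serve for comparison.

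Single-cell libraries were sequenced with the 10x Chromium 3′ v3.1 chemistry, 4 in all, 2 of PPDO and 2 of primary pancreas. PPDO were grown from hand-picked ducts in a basement membrane matrix, in a medium with WNT3A, R-spondin 1, noggin, EGF, FGF10, an inhibitor of TGF-beta receptors and PGE2. They came from 2 lines, from a late postnatal and an adult pig, that had been passaged several times and not equally often, and the labels leave it unsaid which library is which line. The primary libraries came from 2 late postnatal pigs of German landrace background, a wild type and an INS-eGFP animal, which carries eGFP under the porcine insulin promoter. Both were sorted for live cells on different days. By the study's numbering, taken to be that of the labels, library 1 came from ductal fragments isolated by hand and library 2 from a pool of cells binding the lectin DBA, eGFP+ cells and whole suspension, so the mix of cell classes does not describe the organ. No sample is both organoid and freshly isolated, so culture, passage, animal and day cannot be told apart.

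After filtering, PPDO 1 and 2 held 8885 and 7337 cells, primary pancreas 1 and 2 held 5671 and 4261, and the median cell carried 10169 to 34459 unique molecular identifiers (UMIs, counted molecules). Primary cells were gated by a defining gene: SLC4A4 for ductal, CPA1 for acinar, INS for endocrine, PECAM1 for endothelial, and DCN or RGS5 for stromal cells. The ductal gate held 2152 and 1166 cells. The duct genes CFTR, SCTR, SOX9, PKHD1 and ANXA4 were each higher there than in any other gated class in both libraries. CFTR, the chloride channel of duct cells, stood at 960.4 and 806 CPM (the usual scaling of UMIs to a common library total) in the ductal gate against 1.04 and 0.636 CPM in PPDO 1 and 2. SOX9, a transcription factor of duct cells, stood at 324 and 354 CPM against 3.30 and 1.44 CPM, and ANXA4 at 582 and 705 CPM against 127 and 132 CPM, so these duct markers were low in PPDO and most were near 0. The stromal gate of primary pancreas 2 held only 29 cells, with the endocrine genes SST at 9977 CPM and CHGA at 1056 CPM, and fitted differences against stromal cells are given with and without it. Of 6 endocrine markers, 3 and 4 were highest in the endocrine gate in libraries 1 and 2. Together the 6 summed to 5711 and 8036 CPM in that gate, against 4780 and 38505 CPM in cells that passed no gate. The INS gate thus leaves out other endocrine cells, and endocrine here means cells rich in INS. Libraries shared 0.14% to 0.23% of their barcodes.

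KRT5 and KRT15 were abundant in PPDO and near the counting limit in primary ductal cells. KRT5 (ENSSSCG00000000248, chromosome 5, 17862047 to 17868397, RefSeq Sscrofa11.1) had 5419.7 and 7634 CPM in PPDO 1 and 2. In ductal cells it had 0.329 and 0.282 CPM, from 14 and 7 UMIs, and no ductal cell held more than 1. The log2 fold change was 14.80 (SE 0.44, edgeR quasi-likelihood test, Benjamini-Hochberg adjusted p 0.00032). KRT15 (ENSSSCG00000017444, chromosome 12, 21124605 to 21130247) had 1130.1 and 1433 CPM in PPDO against 0.447 and 0.443 CPM in ductal cells, where 19 and 11 UMIs were counted. Its log2 fold change was 11.93 (SE 0.31, edgeR adjusted p 0.00032). The exact size of these folds rests on a ductal level close to 0.

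KRT23 and KRT4 were also higher in PPDO, at lower counts. KRT23 (ENSSSCG00000024067, chromosome 12, 21526868 to 21547063) had 120.1 and 194 CPM in PPDO and 1.199 and 2.54 CPM in ductal cells, with a log2 ratio of 6.92 (SE 0.48, edgeR adjusted p 0.0012). For KRT4 (ENSSSCG00000024610, chromosome 5, 18091742 to 18099086) the ductal cells held 1 and 2 UMIs, against 13.9 and 5.84 CPM in the PPDO libraries. The pooled level was 228-fold higher in PPDO, with a 95% counting interval of 77.9 to 1105. Primary pancreas 1 held 17 more KRT4 UMIs in 5 ungated cells, which had SLC4A4 at 523 CPM and KRT7 at 2280 CPM. The ratio leaves these cells out and so depends on the gate. Beyond counting error, the fitted log2 fold change of 8.15 (SE 0.76, edgeR adjusted p 0.0022) moved to 7.42 without PPDO 1, 7.44 without primary pancreas 1 and 8.98 without primary pancreas 2. With 3 ductal UMIs, KRT4 passed the low-count filter through PPDO only, so it could not have been called lower. The PPDO libraries themselves differed in KRT4 by a larger ratio than in any other of the 5 keratins.

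KRT7 (ENSSSCG00000038966, chromosome 5, 17553192 to 17570582, a locus that the RefSeq table lists as a lncRNA, unlike the 4 others, which it lists as protein coding) was the only member of the 5 with a high level in primary ductal cells. It had 389 and 384 CPM in PPDO against 550.4 and 596 CPM in ductal cells. Scaled by TMM factors, which take the bulk of genes as unchanged, the log2 fold change was -0.11 (SE 0.13, edgeR adjusted p 0.51). Scaled by library totals alone, a setting chosen after seeing the data, it was -0.57 (SE 0.15, edgeR adjusted p 0.029). TMM and library totals differed by -0.45 in the median log2 fold change of all genes, so a fall of KRT7 relative to other genes was not shown, while its share of all UMIs was lower in PPDO.

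Of the 5 keratins, 4 were called higher in PPDO, where 22.8% of 23515 tested genes were called higher and 43.7% in either direction. KRT5, KRT15 and KRT23 would have passed the low-count filter on their ductal counts alone, and KRT4 would not, so the count is a description. In the alternative that counts gene models only, described below, KRT5 and KRT15 would not have passed on ductal counts either. With library totals alone 3285 genes were higher and 6952 lower, against 5372 and 4909 with TMM. KRT5, KRT15 and KRT23 were called higher under all 16 alternatives, including the 4 fits that left out a library, which have 1 sample in an arm and take its spread from the other group.

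**Figure D1:**
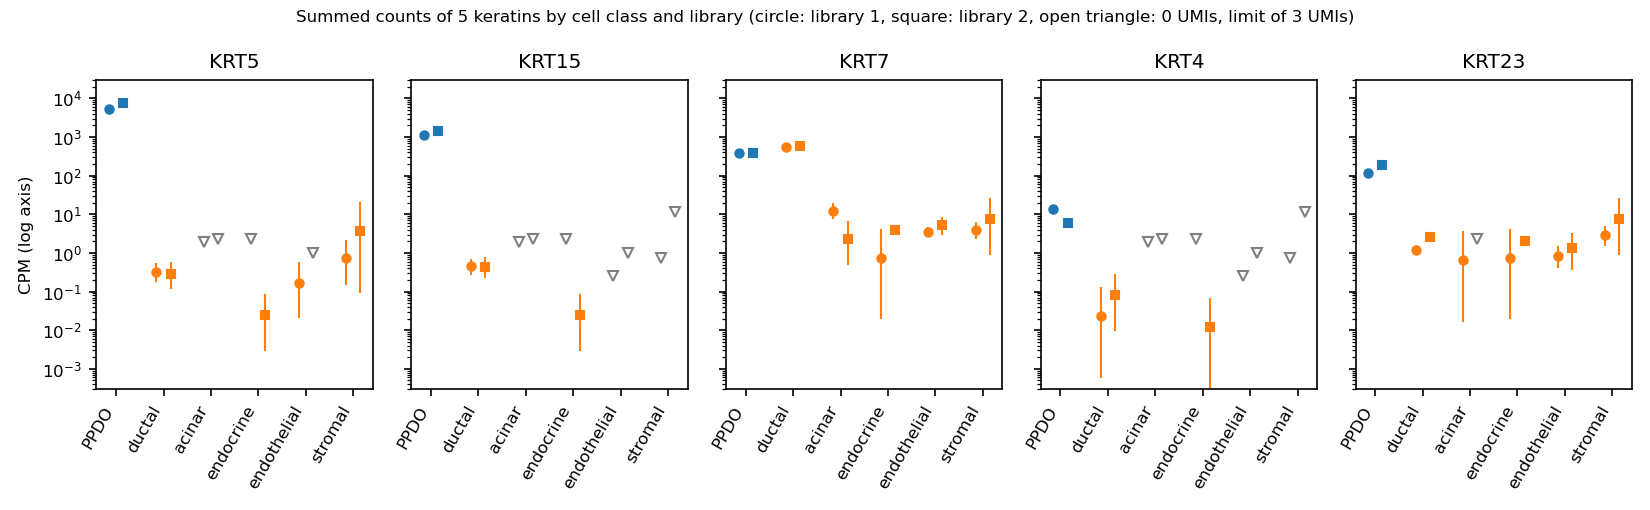
Level of each keratin in CPM (log axis) in PPDO and in 5 gated classes of primary cells, circles for library 1 and squares for library 2, with 95% Poisson intervals that cover counting error only. Open triangles mark sums with 0 UMIs, drawn at the level of 3 UMIs. KRT7 lies between 384 and 596 CPM in PPDO and ductal cells, and the 4 other keratins lie higher in PPDO than in ductal cells.

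The few primary counts were placed differently along the genes than the PPDO counts. Each of the 5 genes is counted in a gene model and in an extension of 8 to 10 kb. Of the KRT5 UMIs in ductal cells, 13 of 14 and 4 of 7 lay in the extension, and of the KRT23 UMIs 40 of 51 and 39 of 63. For KRT15 it was 10 of 19 and 11 of 11, so its gene model held 0 UMIs in the ductal cells of library 2. In RefSeq, KRT15, KRT7 and KRT4 have neighbouring genes within 10 kb, among them KRT19 at 5489 bp from KRT15, and KRT3 and KRT79 at 9622 and 9724 bp from KRT4. Whether extension counts come from a neighbour was not tested. With extensions left out, an alternative chosen after seeing the data, the log2 fold change was 17.14 for KRT5, 13.69 for KRT15, 8.74 for KRT4 and 8.58 for KRT23, each past the threshold, and -0.10 for KRT7 (edgeR adjusted p 0.54). The values with extensions are the smaller ones for these 4 genes. Without extensions, ductal cells held 1 and 3 UMIs of KRT5, 9 and 0 of KRT15, and 1 and 1 of KRT4. At such counts KRT5, KRT15 and KRT4 entered that fit through PPDO only and could not have been called lower.

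Within the primary pancreas, KRT7 was concentrated in ductal cells. Ductal cells made up 37.9% and 27.4% of the cells of primary pancreas 1 and 2 and held 92.7% and 94.97% of the KRT7 UMIs. The other classes stood between 0.755 CPM (1 UMI, endocrine cells of library 1) and 12.4 CPM (19 UMIs, acinar cells of library 1, 13 of them in 1 cell). In a fit over the 10 sums of class and library, KRT7 was higher in ductal than in acinar cells by 4.24 on the log2 scale (SE 0.62, edgeR adjusted p 0.0007), where 12.2% of 15584 genes were higher in ductal cells. Against endocrine cells the log2 difference was 6.50 (SE 0.65, edgeR adjusted p 2.4e-05, 17.2% of genes higher). Against endothelial cells it was 7.01 (SE 0.65, edgeR adjusted p 1.0e-05, 19.3% higher), and against stromal cells 7.103 (SE 0.73, edgeR adjusted p 3.1e-05, 14.5% higher), or 7.21 (edgeR adjusted p 0.00023) with the stromal cells of primary pancreas 1 only, an alternative chosen after seeing the data. The fitted value lies below the CPM ratio within each library for acinar cells (log2 5.47 and 7.98) and endocrine cells (9.51 and 7.28 in libraries 1 and 2). The 4 other classes changed order between the libraries, so their order was not resolved.

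The 4 other keratins were low in every gated primary class. KRT23 had 0 to 7.44 CPM over the 5 classes (the highest from 2 UMIs, in the stromal cells of library 2, and 2.94 CPM without them), and its ductal level did not pass against any of them, with log2 differences from -1.19 (SE 0.67, edgeR adjusted p 0.22, against stromal cells, or -1.11, adjusted p 0.36, with those of library 1 only) to 0.62 (SE 0.61, edgeR adjusted p 0.47, against endothelial cells). KRT5, KRT15 and KRT4 had too few counts to enter that fit. KRT15 UMIs were found in ductal cells (19 and 11), endocrine cells of library 2 (2) and ungated cells of library 2 (2), and in none of 1153 and 278 endothelial cells, which allows up to 0.249 and 0.980 CPM. Free RNA was not removed from these counts.

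The share of cells with a UMI followed the levels. With each cell thinned to 3000 UMIs, 61 and 10 PPDO cells and 159 and 0 ductal cells were too shallow and left out. KRT5 was detected in 93.0% (95% exact interval 92.5 to 93.6) and 97.9% (97.5 to 98.2) of PPDO cells, and in 0.0502% (0.00127 to 0.279) and 0% of ductal cells, where a limit of 3 cells in 1166 is 0.257%. Without thinning, 0.651% and 0.600% of ductal cells held a KRT5 UMI. In endothelial cells, which should lack it, KRT5 was detected in 0.0964% (1 cell) and 0% of thinned cells, so at this depth 1 cell in either class left the ductal and endothelial shares unresolved. Without thinning the endothelial share was 0.173% and 0%, at shallower cells. KRT15 was detected in 56.4% and 55.7% of PPDO cells and 0.201% and 0% of ductal cells. KRT23 was detected in 9.47% and 12.8% of PPDO cells, against 0.201% and 1.201% of ductal and 0.289% and 0.719% of endothelial cells. KRT4 was detected in 1.08% and 0.573% of PPDO cells and in 0% and 0.0858% of ductal cells.

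KRT7 went the other way, in 52.1% and 50.2% of PPDO cells against 73.2% and 75.6% of ductal cells, a difference of -23.3 percentage points. Endothelial cells stood at 1.16% and 2.16%, at median depths of 8776 and 9809 UMIs against 17799.5 and 20574 in ductal cells. Without thinning KRT7 was detected in 91.7% and 88.6% of PPDO cells and 91.1% and 97.2% of ductal cells, and the groups overlapped. For the thinned shares of PPDO and ductal samples the two-sided exact permutation test gave p = 0.333, the smallest that 2 against 2 allow, so none of these differences could pass.

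**Figure D2:**
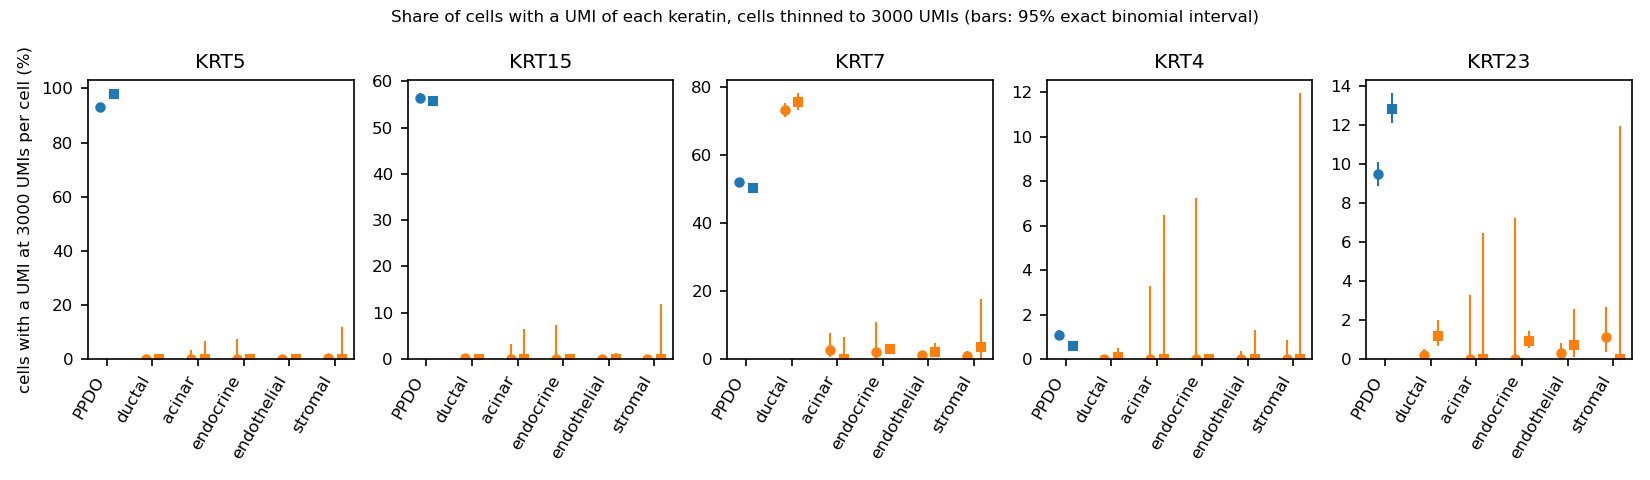
Share of cells with a UMI (%) after thinning each cell to 3000 UMIs, by class, circles for library 1 and squares for library 2, with 95% exact binomial intervals. KRT5 is found in 93.0% and 97.9% of PPDO cells, and KRT7 is the only gene of the 5 found in more ductal than PPDO cells; the panels have different scales.

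Among PPDO cells the keratins were spread unevenly, and each in its own way. KRT5 was broad: the median cell had 3769 and 6021 CPM in PPDO 1 and 2, and the top 1% of cells held 6.35% and 5.98% of its UMIs. KRT15 was uneven, with a median of 308 and 321 CPM, a lower quartile of 47.3 and 38.2 CPM and an upper quartile of 1492 and 2022 CPM. KRT7 had a median of 238 and 229 CPM in PPDO, against 468 and 534 CPM in primary ductal cells. KRT23 was at 0 in the median cell, and the top 10% of cells held 95.2% and 92.6% of its UMIs. KRT4 was confined further, with 91.2% and 97.5% of its UMIs in the top 1% of cells, up to 305 and 210 in a single cell.

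Cells were then split by 6 genes that mark PPDO states, chosen with earlier results of these data known: LGR6, a receptor of R-spondins, TOP2A of cycling cells, PDPN, a membrane glycoprotein of basal cells, GPNMB, a membrane glycoprotein, SPINK5, an inhibitor of epidermal kallikreins, and SPP1, the secreted protein osteopontin. A cell passed at 10% of the level of the highest cells. The gates held 58 to 2195 cells in a library and overlapped by at most 37.3% of a gate, and 53.9% and 47.8% of cells passed none. Sums of gated and other cells of the same library were compared with the library as a term. These fits have 4 sums and 1 residual degree of freedom, and edgeR fills in the spread of a gene from the spread over all genes, so SE and p can be smaller than the difference between the 2 libraries. The borrowed spread counted for 6.83 to 22.8 degrees of freedom in the GPNMB, PDPN, LGR6 and TOP2A fits, and for 542 and an unlimited number in the SPP1 and SPINK5 fits. For those 2 gates the calls and SE of that fit are no measure of the spread between libraries, and the values of each library carry the comparison. In the GPNMB, PDPN, LGR6 and TOP2A fits most degrees of freedom are borrowed as well. Their SE and p understate that spread where the libraries differ.

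The 2 rarest gates both had more KRT23 and less KRT15 than the other cells, and KRT5 and KRT7 moved in opposite directions in them. In SPP1-gated cells (130 and 90 cells) KRT7 stood at 1638 and 1724 CPM, against 369 and 369 CPM in the other cells, log2 ratios of 2.15 in PPDO 1 and 2.22 in PPDO 2. That level lay above the 550.4 and 596 CPM of primary ductal cells, a comparison given as values with no test. KRT4 stood at 207 and 60.6 CPM in SPP1-gated cells against 10.8 and 5.22 CPM (log2 ratios 4.26 and 3.54), and these cells, 1.46% and 1.23% of all, held 23.3% and 11.7% of the KRT4 UMIs. Most SPP1-gated cells held none: at 3000 UMIs KRT4 was detected in 15.4% of gated against 0.863% of other cells in PPDO 1 and in 4.44% against 0.525% in PPDO 2, so the summed level rests on few cells. KRT23 was higher too, at 189.6 and 464 CPM against 119.0 and 191 CPM (0.67 and 1.28), but at 3000 UMIs it was detected in 9.23% of gated against 9.48% of other cells in PPDO 1, and 21.1% against 12.7% in PPDO 2. KRT5 and KRT15 were lower in both libraries by unequal amounts. KRT5 stood at 1990.1 and 4843 CPM against 5474 and 7666 CPM (-1.46 and -0.66), and KRT15 at 372 and 665 CPM against 1142 and 1441 CPM (-1.62 and -1.12). The median cell lay further down than the sums, at 202 and 1472 CPM of KRT5 against 3819 and 6055 CPM in the other cells, and at 42.0 and 44.8 CPM of KRT15 against 318 and 333 CPM. In the fit of SPP1-gated cells 14.8% of 21237 genes were called in either direction, 7.36% higher and 7.47% lower.

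In SPINK5-gated cells (68 and 58 cells) KRT23 reached 1581 and 2531 CPM, against 107.6 and 174 CPM in the other cells (log2 ratios 3.88 and 3.86). These cells were 0.765% and 0.791% of PPDO cells and held 11.2% of the KRT23 UMIs in each library. KRT5 stood at 9946 and 16162 CPM against 5381 and 7560 CPM (0.89 and 1.10). KRT15 stood at 425 and 256 CPM against 1136 and 1443 CPM (-1.42 and -2.50), and KRT7 at 106 and 39.8 CPM against 391 and 387 CPM (-1.88 and -3.28), both with a wider gap in PPDO 2. The sums of KRT15 were carried by a minority of cells, as the median SPINK5-gated cell had 40.03 and 18.0 CPM against 313 and 333 CPM. KRT4 went in opposite directions in the 2 libraries, 5.46 against 14.0 CPM in PPDO 1 and 37.1 against 5.57 CPM in PPDO 2. In SPINK5-gated cells 18.1% of 20985 genes were called in either direction, 7.42% higher and 10.6% lower.

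GPNMB-gated cells (1242 and 716 cells) shared the rise of KRT5 and KRT23. KRT5 had 9076 and 11692 CPM there against 4622 and 7085 CPM (log2 fold change 0.89, SE 0.05, edgeR adjusted p 1.6e-05), and KRT23 had 360.5 and 599 CPM against 67.7 and 139 CPM (2.30, SE 0.06, edgeR adjusted p 7.0e-07). The log2 ratios in PPDO 1 and 2 were 0.97 and 0.72 for KRT5 and 2.41 and 2.10 for KRT23, gaps wider than the SE. The gated cells held 53.7% and 36.8% of all KRT23 UMIs in 14.0% and 9.76% of cells. A minority of them carried that level: the median gated cell had 20.6 and 61.7 CPM, and at 3000 UMIs KRT23 was detected in 29.7% and 39.9% of gated against 6.17% and 9.92% of other cells. KRT7 was lower, with 289 and 256 CPM against 410.4 and 402 CPM (-0.54, SE 0.04, edgeR adjusted p 6.1e-05). KRT15 differed little (0.16, SE 0.03, edgeR adjusted p 0.011), a call that was lost at a gate of 20% (adjusted p 0.45). Its log2 ratios were 0.18 in PPDO 1 and 0.07 in PPDO 2. The median cell disagreed between libraries, at 351 against 302 CPM in PPDO 1 and 270 against 328 CPM in PPDO 2. KRT4 did not pass, with 3.84 against 16.1 CPM in PPDO 1 and 8.99 against 5.42 CPM in PPDO 2. In either direction 25.1% of 21751 genes were called, 12.8% higher and 12.3% lower. Gated cells were deeper, with median totals of 43878.5 and 43263.5 UMIs against 32597 and 33698. The KRT5 and KRT23 calls were also made with cells thinned to 20000 UMIs, under the gates set at full depth. Thinning leaves the expected CPM of a cell unchanged, so a tie between level and depth was not tested.

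In LGR6-gated cells (2045 and 2195 cells) KRT23 and KRT4 were far lower than in the other cells. KRT23 stood at 10.3 and 29.3 CPM against 158 and 268 CPM (log2 fold change -3.68, SE 0.14, edgeR adjusted p 1.1e-07), and KRT4 at 2.21 and 0.504 CPM against 18.0 and 8.24 CPM (-3.50, SE 0.18, edgeR adjusted p 6.0e-07). The log2 ratios in PPDO 1 and 2 were -3.94 and -3.19 for KRT23 and -3.03 and -4.03 for KRT4, gaps wider than the SE. KRT4 levels rest on few cells. At 3000 UMIs it was detected in 0.342% of gated against 1.30% of other cells in PPDO 1, and 0.137% against 0.760% in PPDO 2. KRT5 was lower by less, with 3441 and 5858 CPM against 6111 and 8432 CPM (-0.81, SE 0.06, edgeR adjusted p 7.2e-06). Its log2 ratios were -0.83 and -0.53 in PPDO 1 and 2, a gap wider than the SE. KRT7 had 303 and 313 CPM against 418 and 416 CPM, log2 ratios of -0.46 and -0.41. Its fitted value of -0.57 (SE 0.05, edgeR adjusted p 1.5e-05) was a wider gap than in either library. KRT15 had 1245 and 1666 CPM against 1089.9 and 1328 CPM and missed the threshold (0.13, SE 0.05, edgeR adjusted p 0.063), while it passed with cells thinned to 20000 UMIs (0.15, edgeR adjusted p 0.0071). In single cells the KRT15 difference was wider, with a median of 666 and 933 CPM in gated cells against 227 and 143 CPM, and detection at 3000 UMIs in 67.9% and 71.5% against 52.9% and 48.9%, described here with no test. In either direction 30.3% of 21637 genes were called, 14.8% higher and 15.6% lower.

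PDPN-gated cells (882 and 1183 cells) had more KRT7, with 606 and 505 CPM against 361 and 359 CPM (log2 fold change 0.63, SE 0.06, edgeR adjusted p 0.00016). The log2 ratios were 0.75 and 0.49 in PPDO 1 and 2, a gap wider than the SE. KRT23 was lower, with 24.2 and 30.2 CPM against 132 and 228 CPM (-2.69, SE 0.09, edgeR adjusted p 3.8e-07). KRT5 (-0.03, SE 0.05, edgeR adjusted p 0.80) and KRT15 (-0.15, SE 0.09, edgeR adjusted p 0.42) did not pass, though KRT15 did at a gate of 20% (-0.45, adjusted p 0.0016) and with thinned cells (-0.14, adjusted p 0.021). The libraries disagreed in KRT15, with 1193 against 1122 CPM in PPDO 1 and 1126 against 1496 CPM in PPDO 2. For KRT5 the median gated cell was higher, at 4769 and 6779 CPM against 3670 and 5840 CPM, described here with no test. KRT4 stood at 6.32 and 0.156 CPM against 14.8 and 7.02 CPM, a call (-2.07, edgeR adjusted p 0.021) that DESeq2 did not make (adjusted p 0.40). Of 21595 genes 9.02% were called in either direction, 5.1% higher and 3.92% lower.

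TOP2A-gated cells (254 and 271 cells) had lower summed levels of all 5 keratins in both libraries, by unequal amounts. KRT23 was at 39.3 and 49.7 CPM against 123 and 202 CPM, log2 ratios of -1.65 and -2.02 in PPDO 1 and 2. Its fit gave -1.93 (SE 0.09, edgeR adjusted p 1.5e-15), with an SE smaller than the gap between libraries. KRT5 stood at 3802 and 5799 CPM against 5482 and 7733 CPM (-0.53 and -0.42 in PPDO 1 and 2, a gap wider than the fitted SE of 0.03). KRT15 stood at 531 and 999 CPM against 1153 and 1456 CPM (-1.12 and -0.54), and KRT7 at 336 and 212 CPM against 391 and 394 CPM (-0.22 and -0.89), so the libraries differed in the size of both by more than the fitted SE of 0.08 and 0.09. edgeR called all 5, where 14.3% of 21595 genes were lower in gated cells, 15.3% higher and 29.7% called in either direction. The median KRT15 level per cell did not follow the sum in PPDO 2, where it was 514 CPM in gated and 309 CPM in other cells. KRT4 stood at 11.5 against 14.0 CPM in PPDO 1, where it was detected in 1.19% of gated and 1.07% of other cells, and at 0.372 against 6.14 CPM in PPDO 2. The KRT4 call (-1.09, edgeR adjusted p 0.0053) was lost with DESeq2 (adjusted p 0.39), with thinned cells (adjusted p 0.058) and at a gate of 5%, where its sign turned (0.11, adjusted p 0.93). TOP2A-gated cells were the deepest, with medians of 47904.5 and 51607 UMIs.

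**Figure D3:**
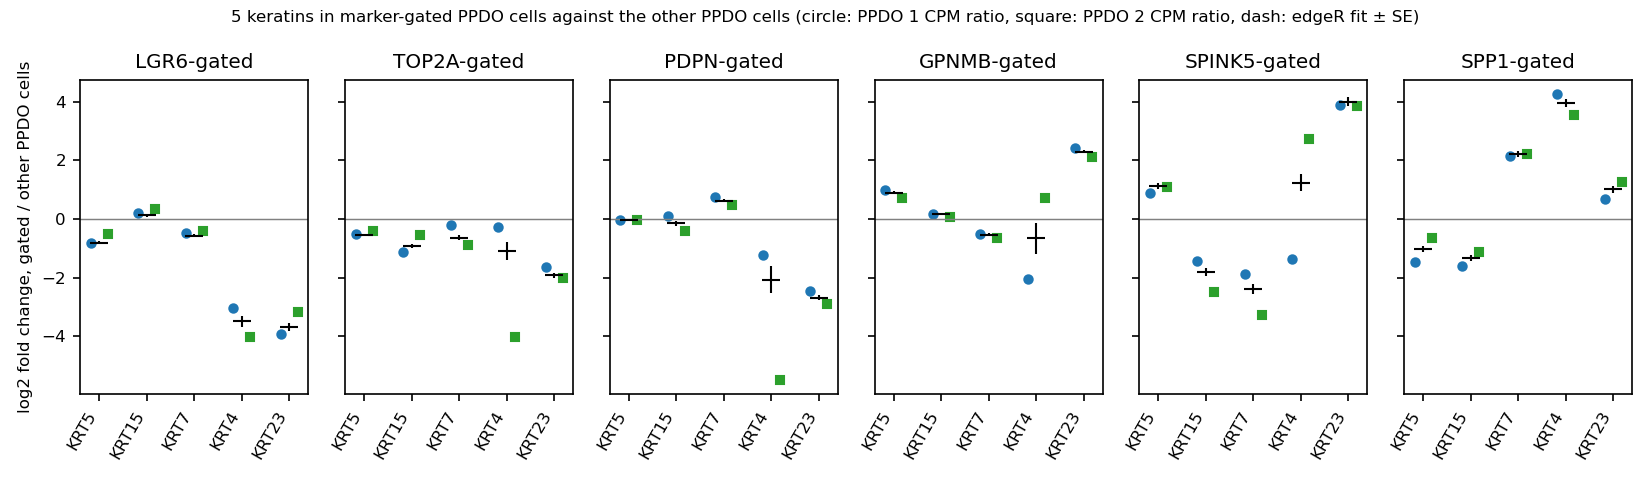
Log2 fold change of each keratin in marker-gated against the other PPDO cells, circles for the CPM ratio in PPDO 1, squares for PPDO 2, dashes for the edgeR fit with its SE, which for the SPP1 and SPINK5 gates covers little of the spread between libraries. KRT23 is higher in GPNMB-, SPINK5- and SPP1-gated cells and lower in the 3 other gates. KRT4 differs most between libraries in all gates but SPP1, where KRT5 does.

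**Figure D4:**
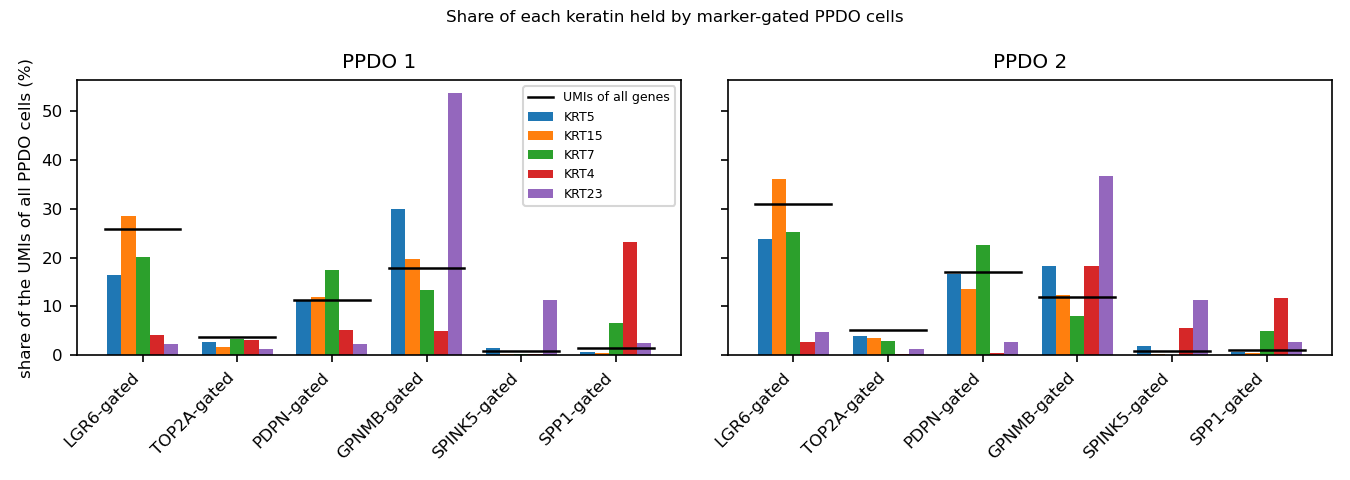
Share (%) of the UMIs of each keratin held by the cells of each gate in PPDO 1 and 2, with black lines for the share of UMIs of all genes. GPNMB-gated cells hold 53.7% and 36.8% of KRT23, and SPP1-gated cells hold 23.3% and 11.7% of KRT4.

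Across single PPDO cells the 5 keratins were only weakly tied to each other. Over 8885 and 7337 cells, Pearson's r of log levels was 0.286 and 0.170 for KRT5 with KRT15 and 0.274 and 0.249 for KRT5 with KRT23, while KRT5 also rose with the UMIs per cell (r 0.339 and 0.382). KRT7 went against KRT23 (r -0.108 and -0.159). Cells without a KRT5 UMI at 3000 UMIs were 615 and 156, and KRT4 was found in 5.04% and 3.21% of them, against 0.780% and 0.516% of cells with KRT5. These values describe cells that share a library and depth, and carry no test.

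In PPDO cells some genes followed a keratin more closely than any of the other 4 did. By mean r over the cells of the 2 PPDO libraries, among 5997 genes, KRT23 was most like CRABP2, a carrier of retinoic acid (r 0.656 and 0.725), S100A12 (0.667 and 0.689) and KRTDAP, a keratinocyte differentiation protein (0.605 and 0.676). KRT7 was most like S100A10 (0.478 and 0.537) and KRT8, a type II keratin of simple epithelia (0.496 and 0.476). KRT5 was most like S100A11 (0.672 and 0.617), KRT15 most like HSD17B12, a fatty acid elongation enzyme (0.482 and 0.593), and KRT4 most like MAL, a membrane protein of apical transport (0.346 and 0.305). Over the 12 sums of PPDO and primary classes, KRT7 was most like EREG, an EGF receptor ligand (r 0.982), and KRT4 most like TFF3, a secreted trefoil peptide (r 0.997). KRT5 was there most like KRTDAP (r 0.996) and S100A8 (0.994), which were also the nearest to KRT23 (0.984 and 0.977). KRT15 was most like GJB5, a gap junction protein, and BNC1, a zinc finger protein of basal keratinocytes (0.999). For KRT7 such an r sets PPDO and ductal cells against the other primary classes, and for the 4 others mostly PPDO against primary cells.

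The other keratins did not move as a block. Of 32, 24 had enough counts to test, and 9 were called higher and 5 lower in PPDO (22.8% and 20.9% of all genes), or 8 and 6 with library totals alone. Of the 9, 7 had 1 to 6 UMIs in all ductal cells, passed the low-count filter through PPDO only and could not have been called lower, so the count is a description. KRT8 and KRT18, the pair of simple epithelia, parted. KRT8 had 1102 and 650.4 CPM in PPDO against 946 and 910.3 CPM in ductal cells and did not pass (0.36, SE 0.27, edgeR adjusted p 0.34; -0.08 with library totals alone). KRT18 had 129 and 51.7 CPM against 473 and 423 CPM, a fall of 1.88 on the log2 scale (edgeR adjusted p 0.028). KRT20, of intestinal and urothelial surface cells, was at 0.485 and 0.541 CPM against 7.004 and 7.69 CPM (-3.38, SE 0.28, edgeR adjusted p 0.0017), and KRT80 at 4.36 and 3.43 CPM against 88.5 and 19.6 CPM (-3.42, SE 0.84, edgeR adjusted p 0.030). KRT10, a suprabasal type I chain, was higher (1.85, SE 0.27, edgeR adjusted p 0.0067), and KRT1, its type II partner, had 4.20 and 10.5 CPM in PPDO and a single UMI in all ductal cells. KRT14, KRT16, KRT17, KRT19 and KRT6A were not analysed here.

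**Figure D5:**
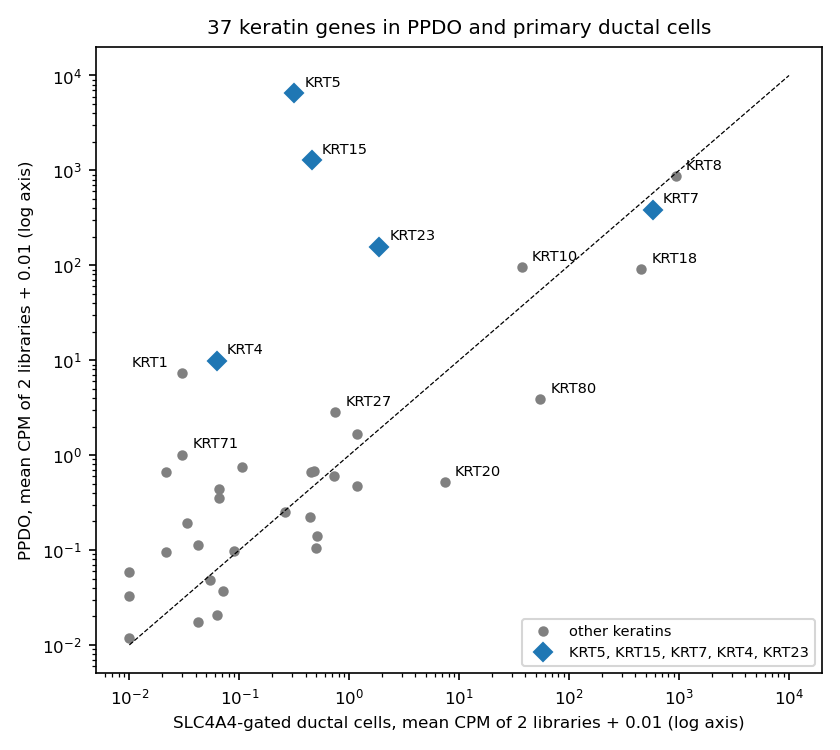
Mean CPM of 2 libraries (plus 0.01, log axes) of 37 keratin genes in PPDO against SLC4A4-gated primary ductal cells, diamonds for the 5 keratins described and the dashed line for equal levels. KRT5, KRT15, KRT23 and KRT4 lie far above the line, while KRT7 and KRT8 lie close to it.

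Of 12 measured genes that anchor keratins to desmosomes and hemidesmosomes, 6 were called higher in PPDO and 2 lower (22.8% and 20.9% of all genes). Among the 6, PKP1 passed the low-count filter through PPDO only. PKP1, a plakophilin of stratified epithelia, reached 42.2 and 52.8 CPM, against 5 UMIs in all ductal cells (log2 fold change 9.77, SE 0.69, edgeR adjusted p 0.0012), and DSG3, a desmosomal cadherin of basal cells, had 254 and 289.7 CPM against 0.353 and 0.926 CPM (9.29, SE 0.45, edgeR adjusted p 0.0006). JUP (1.12, SE 0.19, edgeR adjusted p 0.011), PKP3, PLEC and DSP were higher by less, between 0.72 and 1.52. DSG2, the cadherin of simple epithelia (-0.72, SE 0.16, edgeR adjusted p 0.024), and DST, a linker of filaments to hemidesmosomes (-2.21, SE 0.25, edgeR adjusted p 0.0035), were lower. With library totals alone 5 were higher and 3 lower, against 3285 and 6952 of 23515 genes.

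Of 8 measured transcription factors of stratified epithelia, 5 were called higher and 2 lower under both scalings (with TMM 22.8% and 20.9% of all genes, with library totals 3285 and 6952 of 23515). TFAP2A and TFAP2C, with 10 and 6 UMIs in all ductal cells, passed the low-count filter through PPDO only and could not have been called lower. TP63, a regulator of basal cells and of KRT5, had 554 and 587 CPM in PPDO against 0.259 and 0.362 CPM in ductal cells (log2 fold change 11.33, SE 0.23, edgeR adjusted p 0.00031). TFAP2A (11.06, SE 0.39, edgeR adjusted p 0.00036), TFAP2C, GRHL3 (6.41, SE 0.21, edgeR adjusted p 0.00035) and KLF5 (3.46, SE 0.49, edgeR adjusted p 0.0063) were higher as well. GRHL2 (-0.92, SE 0.14, edgeR adjusted p 0.0076) and ELF3 (-2.91, SE 0.79, edgeR adjusted p 0.039) were lower. KLF4 did not pass (1.21, SE 1.63, edgeR adjusted p 0.58), with 97.2 and 102 CPM in PPDO but 107 and 1.45 CPM in the ductal cells of the 2 animals.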

How the data were processed

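The authors deposited unnormalized counts of UMIs for every feature in every barcode, made with Cell Ranger on an in-house pig annotation (labels name Sscrofa11.1 and GRCh38) and not corrected for free RNA; the other deposited columns hold barcode and feature names. Features of 1 gene (gene model and extension) were summed. Cells were kept by the study's limits on mitochondrial share and detected features (at least 1000 in both PPDO libraries, as the labels do not tell the lines apart), and 89 and 154 doublets were removed from primary libraries (Scrublet, scanpy 1.11.5). A cell passed a gate with at least 2 UMIs and 10% of the median of the 20 highest cells (of at least 3000 UMIs). Counts were summed per library and class and tested with edgeR 4.0.16 (TMM, filterByExpr, quasi-likelihood, Benjamini-Hochberg at 0.05), or DESeq2 1.42.0 as an alternative. The genes named are the 5 keratins, the 32 other keratins whose symbols the count tables carry, fixed lists of linkers and regulators, and the genes of highest correlation at 20 CPM or more. The members, lists and gates were chosen with earlier results of these data known. Replicates are libraries of different lines or animals, with 2 per group. Intervals cover counting error only. PPDO sums held 300990260 and 262372786 UMIs, ductal sums 42545060 and 24847611. Fits of PPDO against ductal, ductal against endothelial, and LGR6-gated against other PPDO cells were also run on simulated data. There 200 genes changed 4-fold at a set dispersion of 0.05. This checked how the fits ran and not the spread of these data, and the other gates were not simulated. Alternatives were the scaling, low-count filter, gate, depth, tool, replicate block and each library left out.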

Additional observations from a re-analysis of the deposited data

Results flagged for a closer look

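Members were also counted in primary cells that passed no gate and so entered no comparison. KRT7 stood there at 102 CPM in primary pancreas 1 and 56.9 CPM in primary pancreas 2, above the 4.11 and 3.87 CPM of the gated non-ductal cells. Of 1692 and 563 ungated cells, 59 and 24 held at least 3 KRT7 UMIs. These cells, chosen after values were seen, had SLC4A4 at 1470 and 1371 CPM, under the gate's thresholds of 4412 and 4607 CPM, EPCAM at 1003 and 851 CPM, and LGR5, a receptor of R-spondins, at 341 and 490.04 CPM against 3.07 and 8.003 CPM in the other ungated cells. The LGR5 UMIs came from 15 of the 59 and 14 of the 24 cells.

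KRT4 in ungated cells of primary pancreas 1 stood at 1.29 CPM, where the gated non-ductal cells of that library had 0 UMIs. All 17 UMIs came from 5 cells, up to 7 in 1 cell, and the 5 cells held 327 KRT7 UMIs (2280.2 CPM) and 28 TFF3 UMIs. The duct genes SLC4A4, CFTR and SOX9 stood at 523, 76.7 and 335 CPM in them, and EPCAM at 1185 CPM. Their SLC4A4 level lay under the threshold of the ductal gate. KRT23 in ungated cells stood at 2.65 and 4.38 CPM, against 1.26 and 1.95 CPM in gated non-ductal cells. None of these differences was tested.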

How the results depend on the processing

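The count of genes that differed between PPDO and ductal cells, 10281, was 6349 against all primary cells, 6161 with sums thinned to the smallest, and 4575 to 10786 with a library left out (5014 without PPDO 1, 4575 without PPDO 2). KRT7 turned to 1.12 (edgeR adjusted p 0.087) against all primary cells, which are mostly not ductal, and to -0.57 (edgeR adjusted p 0.029) with library totals alone; its other alternatives did not pass. In the library left in, KRT7 was higher in ductal cells by 5.47 to 7.98 than in acinar, 7.28 to 9.51 than in endocrine, and 6.33 to 7.13 than in stromal cells (log2 CPM ratios, no test). Shares of cells, PPDO minus ductal, ranged with a library left out from 93.0 to 97.8 percentage points for KRT5, 55.6 to 56.3 for KRT15, 0.53 to 1.03 for KRT4 and 8.77 to 12.1 for KRT23.

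Single values turned sign for KRT23 in ductal against acinar cells (-0.55 at a gate of 5%), KRT4 in TOP2A-gated cells (0.11 at a gate of 5%), KRT4 in SPINK5-gated cells (-1.35 in PPDO 1 alone, 2.74 in PPDO 2 alone), KRT4 in GPNMB-gated cells (0.22 at a gate of 20%, 0.73 in PPDO 2 alone), KRT15 in PDPN-gated cells (0.09 in PPDO 1 alone), and KRT5 in PDPN-gated cells (0.086 at a gate of 20%, 0.0043 with thinned cells). The cause was not tested. Leaving out libraries for shares and marker-gated cells was chosen after seeing the data. Of 180 alternatives for marker-gated cells, 151 counted as unchanged. For a fit this meant the same direction and call, and its size was not compared. For a single library it meant a distance from the main fit within the standard deviation of the 2 single-library values. That limit widens as the libraries differ, so it is no measure of a stable size.

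Equal replicate numbers do not pair PPDO with primary libraries (r -0.00722 over 23515 genes). With the number as a replicate block, 8182 genes differed, and KRT5 (14.76), KRT15 (11.91), KRT4 (8.13) and KRT23 (6.91) kept their calls, while KRT7 (-0.11) was again not called. Without the library term, KRT7 kept its calls between primary classes, with log2 differences of 4.24, 6.58, 6.999 and 7.07. With 2 libraries a group, small differences in KRT4, KRT5 and KRT15 in primary cells are below what these depths resolve.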

Other observations

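KRT8 and KRT18, the simple-epithelial pair, lay on the same side as KRT7 in the 2 rarest PPDO gates, given as values with no test. In SPP1-gated cells KRT8 stood at 3299 and 2379.5 CPM against 1067 and 631 CPM in the other cells, and KRT18 at 586 and 274 CPM against 122 and 49.2 CPM. In SPINK5-gated cells both were lower in each library, KRT8 at 516 and 91.1 CPM against 1107 and 655 CPM and KRT18 at 44.9 and 8.40 CPM against 130 and 52.1 CPM. In PDPN-gated cells, where KRT7 was higher, neither passed (0.14, edgeR adjusted p 0.15, and 0.07, edgeR adjusted p 0.66). Where KRT7 was lower the gates differed. In LGR6-gated cells KRT8 (-0.58) and KRT18 (-0.61) were lower too. For TOP2A the fitted values were -0.18 and -0.71, though KRT8 had 1114 against 1102 CPM in PPDO 1. In GPNMB-gated cells KRT8 was slightly higher (0.14, edgeR adjusted p 0.018) and KRT18 did not pass (0.05, edgeR adjusted p 0.43).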
